A study of Mus musculus with 12 samples.

Results

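Adiponectin and leptin are hormones of fat tissue, and the genes described here, apart from *Paqr3*, encode proteins that receive them. *Adipor1*, *Adipor2*, *Cdh13*, *Lepr* and *Paqr3* were taken by symbol, 5 of the 22947 genes of the table, and all 5 passed the filter on low values, an FPKM (fragments per kilobase of transcript, scaled by the fragments mapped in the library) of at least 1 in at least 3 libraries. Messenger RNA of whole epididymal white adipose tissue (eWAT) was sequenced from 12 male C57BL/6J mice, 3 in each of 4 groups. From 5 weeks of age, for 16 weeks, the mice ate a normal diet (ND), a high-fat diet (HFD), the HFD with 1.5% (w/w) of an ethanol extract of chrysanthemum leaf (CLE), or the HFD with 0.003% (w/w) of the flavonoid luteolin (LU), and all were 21 weeks old. ND was thus the only group without the high-fat diet, and CLE and LU were compared with HFD for the effect of a supplement. Each title carries a group and 1 number, and each library was taken to come from 1 mouse.

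Adiponectin is secreted by adipocytes and is best known for raising insulin sensitivity. Its receptors AdipoR1 and AdipoR2 span the membrane repeatedly and belong to the progestin and adipoQ receptor (PAQR) family. They act through the adaptor APPL1, AMP-activated protein kinase, PPARα and the breakdown of ceramide. T-cadherin, the product of *Cdh13*, is held to the cell surface by a lipid anchor, has no part inside the cell, and binds the large forms of adiponectin, chiefly on blood vessels. The leptin receptor *Lepr* is a cytokine receptor whose long form signals through JAK2 and STAT3, while its short forms lack most of the intracellular part. *Paqr3* encodes a PAQR protein of the Golgi membrane and is not a cell surface receptor for adiponectin.

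The sequences of the receptors bear on how far the values can tell them apart. The coding sequences of *Adipor1-201* (1128 bases with the stop codon, chromosome 1) and *Adipor2-201* (1161 bases, chromosome 6) were identical at 75.3% of 1085 aligned bases. The longest run shared by these transcripts, shown here because the sequenced reads were 100 bases long, held 15 bases of coding sequence. It spans an intron in both genes of GRCm38, at chr1:134428263-134431064 and chr6:119357402-119358928.
Shared run of *Adipor1-201* and *Adipor2-201*: agagcaggagtgttc

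The forms of *Lepr* differ in their last coding bases, which are shown because they separate the signaling form from the short ones. *Lepr-201*, *Lepr-202* and *Lepr-203* share their first 889 codons. The long form *Lepr-201* then continues to 1162 codons, *Lepr-202* ends after 892 and *Lepr-203* after 894. In the stretches below, lower case is the shared end and capitals are each form's own bases (for *Lepr-201* the first 30 of 822, from GRCm38 chr4:101814448-101814477, for *Lepr-202* from chr4:101792071-101792082 and for *Lepr-203* from chr4:101811348-101811365).
Lepr-201: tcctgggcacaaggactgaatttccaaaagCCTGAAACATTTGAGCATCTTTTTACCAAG
Lepr-202: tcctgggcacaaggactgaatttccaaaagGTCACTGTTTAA
Lepr-203: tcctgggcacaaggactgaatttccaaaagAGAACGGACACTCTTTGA

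Promoter windows of RefSeq (GRCm38.p6, 250 bases before to 50 after a start) were found for 4 of the 5 genes, namely *Adipor1*, *Adipor2*, *Lepr* and *Paqr3*. Those of *Adipor1*, *Adipor2* and *Paqr3* are shown because their genes behaved differently under the diets. Capitals mark matches, on either strand, to the GC box GGGCGG, the CCAAT box CCAAT or the TATA box TATAAA. Overlapping matches were each counted. Of 32851 promoter windows of this length, 35.7% held a GC box, 37.4% a CCAAT box and 13.6% a TATA box. A match is a description of letters and not of a bound site.
Adipor1, chr1:134415128-134415427, plus strand: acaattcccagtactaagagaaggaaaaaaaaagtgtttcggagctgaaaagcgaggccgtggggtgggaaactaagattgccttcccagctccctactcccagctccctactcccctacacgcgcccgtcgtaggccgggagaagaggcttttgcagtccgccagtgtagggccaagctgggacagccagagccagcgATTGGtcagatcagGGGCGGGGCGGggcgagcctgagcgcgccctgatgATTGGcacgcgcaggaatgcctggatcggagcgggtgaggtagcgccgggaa
Adipor2, chr6:119388685-119388984, minus strand: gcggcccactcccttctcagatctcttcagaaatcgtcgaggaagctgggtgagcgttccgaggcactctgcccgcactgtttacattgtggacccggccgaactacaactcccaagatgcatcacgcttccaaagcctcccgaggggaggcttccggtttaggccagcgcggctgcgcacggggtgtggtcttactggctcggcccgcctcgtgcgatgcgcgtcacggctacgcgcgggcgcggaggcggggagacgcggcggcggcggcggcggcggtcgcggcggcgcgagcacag
Paqr3, chr5:97111547-97111846, minus strand: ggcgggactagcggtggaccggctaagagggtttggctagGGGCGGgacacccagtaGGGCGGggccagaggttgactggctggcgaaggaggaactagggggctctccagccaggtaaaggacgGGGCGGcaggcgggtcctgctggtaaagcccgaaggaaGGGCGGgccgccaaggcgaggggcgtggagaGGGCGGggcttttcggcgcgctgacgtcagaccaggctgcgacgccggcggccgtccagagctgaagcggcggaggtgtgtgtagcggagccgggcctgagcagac

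The *Adipor1* window shown held 2 GC boxes, which overlap, and 2 CCAAT boxes, and the *Paqr3* window held 5 GC boxes. The *Adipor2* window held none of the 3 motifs, and had 41 CpG dinucleotides. The *Adipor1* window shown had 21, and a second *Adipor1* window, at chr1:134415414-134415713 over the starts of *Adipor1-202* and 2 other transcripts, had 40 and held 3 GC boxes. The median over all windows was 7. This *Adipor2* window was set on a start at 119388734. The only annotated start within the window is that of the minor transcript *Adipor2-202*, at 119388686. The major transcript *Adipor2-201* starts at 119417704, outside it.

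The 5 genes were expressed at very different levels per length, in the same order in every library. *Adipor2* (ENSMUSG00000030168, chromosome 6, 119353150 to 119417704 on the minus strand of GRCm38) had a mean of 325 FPKM over the 12 libraries. *Adipor1* (ENSMUSG00000026457, chromosome 1, 134415378 to 134433351, plus strand) had 72.8 FPKM and *Cdh13* (ENSMUSG00000031841, chromosome 8, 118283733 to 119324921, plus strand) 45.3 FPKM. *Paqr3* (ENSMUSG00000055725, chromosome 5, 97082329 to 97111596, minus strand) had 7.92 FPKM, and *Lepr* (ENSMUSG00000057722, chromosome 4, 101717404 to 101815352, plus strand) had 1.07 FPKM. No 2 neighbours in this order overlapped. The lowest *Adipor2* value was 192 FPKM and the highest *Adipor1* value 77.9, the lowest *Adipor1* value was 67.1 and the highest *Cdh13* value 62.4, and the highest *Lepr* value was 2.45 against 5.66 for the lowest of *Paqr3*.

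**Figure D1:**
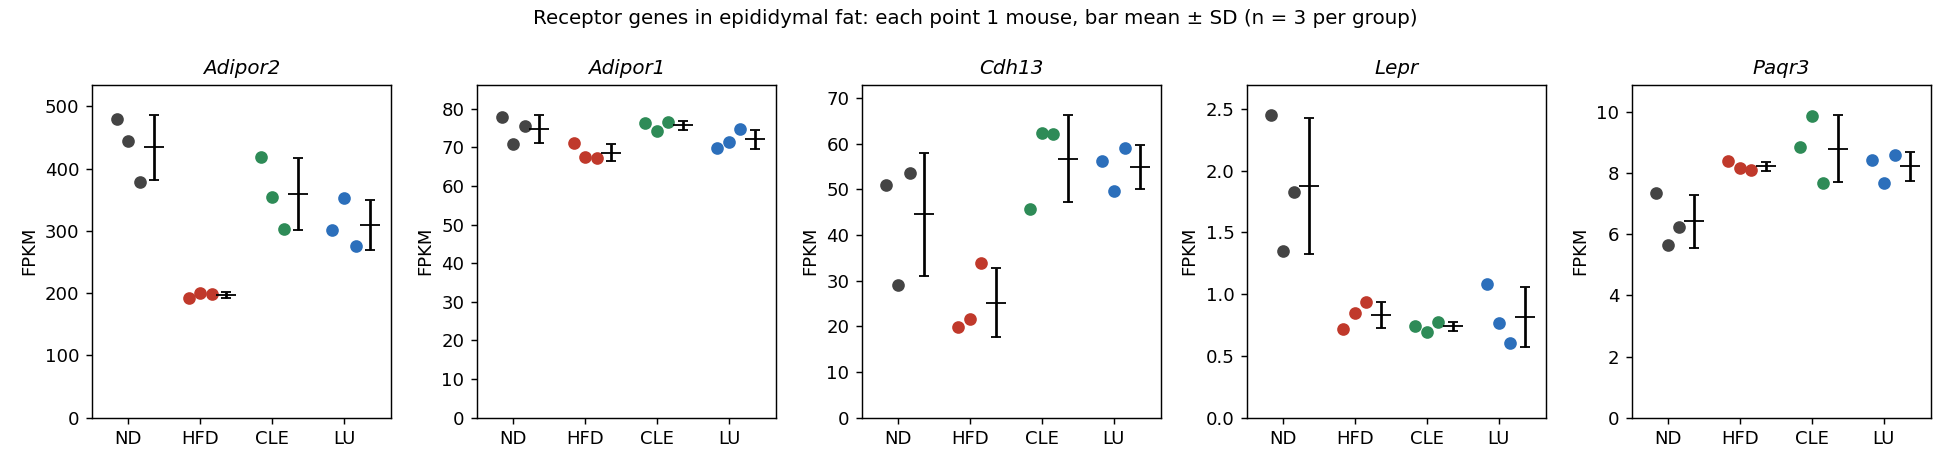
FPKM of *Adipor2*, *Adipor1*, *Cdh13*, *Lepr* and *Paqr3* (vertical axes, each from 0) in the ND, HFD, CLE and LU groups (horizontal axes), with 1 point per mouse and a bar for the mean ± SD of 3 mice. The 3 HFD mice sit between 192 and 200 FPKM for *Adipor2*, below every mouse of the other groups, while *Adipor1* stays between 67.1 and 77.9 in all 12 mice.

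Between HFD and ND, *Adipor2*, *Cdh13* and *Lepr* were lower with the high-fat diet, and neither *Adipor1* nor *Paqr3* was called. Calls required a fold change over 1.5 and an adjusted p (Benjamini-Hochberg) under 0.05 in limma, run on log2(FPKM + 1) of all 12775 genes that passed the filter. So 3 of the 5 genes were called lower and 0 higher, where 10.8% of all tested genes were called lower and 25.6% were called in either direction. Among them, *Lepr* passed the filter only through ND: it reached an FPKM of 1 in the 3 ND mice and LU mouse 2. Its call and lack of overlap against ND are thus not independent of the filter. The HFD and ND mice did not overlap for 3 of the 5 genes (*Adipor2*, *Lepr* and *Paqr3*), against 59.5% of all tested genes. The median log2 fold change of the 5 genes was -0.63, and that of all genes tested was -0.02. The former is the value of *Lepr* itself, so it is not independent of the filter either. Fold changes are on the log2(FPKM + 1) scale throughout, which understates changes of genes with low FPKM.

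Both supplements were compared with HFD for what they did to these genes within the high-fat diet. *Adipor2* and *Cdh13* were higher with CLE and also with LU, and *Adipor1*, *Lepr* and *Paqr3* were not called with either. For CLE, 2 of the 5 genes were called higher and 0 lower, against 6.33% of tested genes called higher and 16.5% in all. For LU it was 2 higher and 0 lower, against 4.81% and 12.4%. The CLE and HFD mice did not overlap for 3 of the 5 genes (*Adipor1*, *Adipor2* and *Cdh13*; 50.6% of all genes), and the LU and HFD mice for *Adipor2* and *Cdh13* (47.6% of all genes). The 3 HFD mice enter all 3 of these comparisons.

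**Figure D2:**
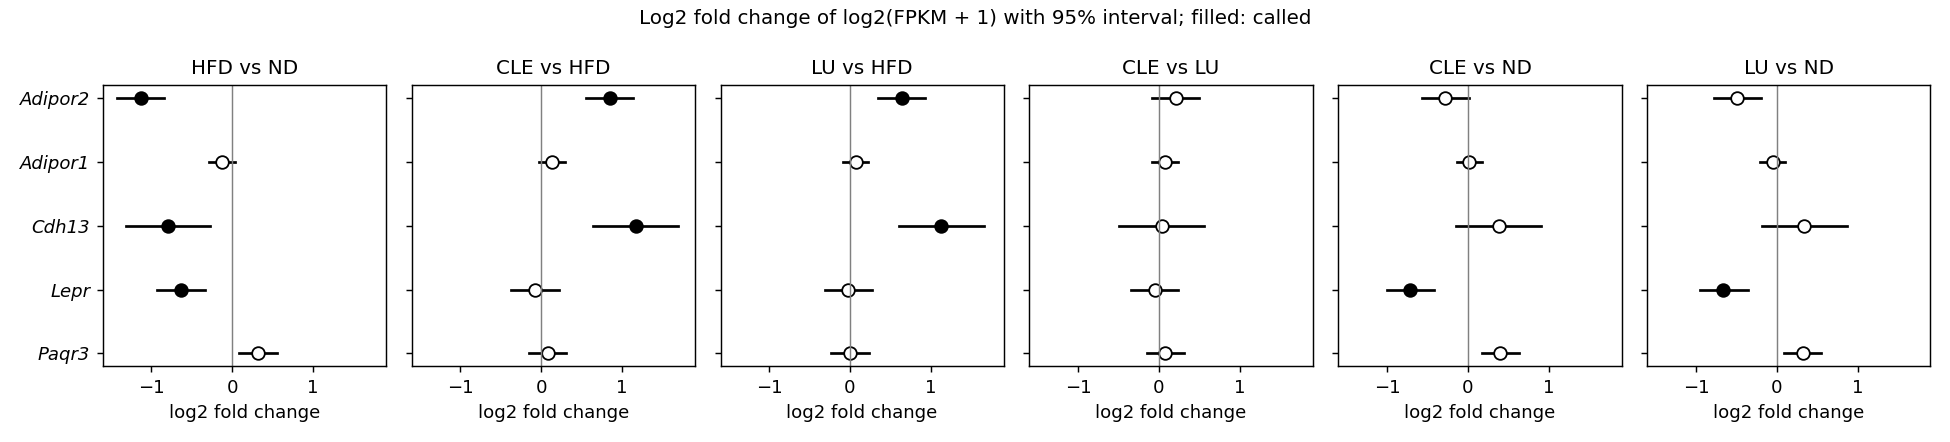
Log2 fold change on the log2(FPKM + 1) scale (horizontal axes) of the 5 genes (rows) in each of 6 comparisons (panels), with the 95% interval as a line and a filled point where the gene was called. *Adipor2* is at -1.13 for HFD against ND, 0.85 for CLE against HFD and 0.64 for LU against HFD, and every interval for CLE against LU includes 0.

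*Adipor2* had the largest absolute change of the 5 genes between HFD and ND. Its level was 480, 444 and 378 FPKM in ND mice 2, 3 and 4, and 192, 200 and 199 FPKM in HFD mice 12, 15 and 18. It was 419, 355 and 303 FPKM in CLE mice 2, 4 and 11, and 301, 353 and 275 FPKM in LU mice 2, 3 and 8. Every HFD mouse was lower than every mouse of the other groups, and the CLE and LU mice overlapped. The group means ± SD (n = 3 each) were 434 ± 51.5 FPKM in ND, 197 ± 4.49 in HFD, 359 ± 58.2 in CLE and 309 ± 39.8 in LU. In limma with Benjamini-Hochberg adjustment, *Adipor2* fell by 1.13 on the log2 scale in HFD against ND (standard error 0.13, 95% interval -1.42 to -0.84, adjusted p = 3.9e-05), to 0.457 of the ND level. It rose by 0.85 with CLE against HFD (interval 0.56 to 1.14, limma adjusted p = 6.3e-04), a fold of 1.8, and by 0.64 with LU (interval 0.35 to 0.93, limma adjusted p = 0.00504), a fold of 1.56. Without LU mouse 3 the change with LU was 0.54 and was no longer called.

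The RNA came from whole tissue, in which fewer cells of a type and less RNA per cell cannot be told apart. The adipocyte markers moved with *Adipor2*. The summed level of all 9 markers (*Adipoq*, *Plin1*, *Lipe*, *Cidec*, *Fabp4*, *Pck1*, *Cfd*, *Lpl* and *Pnpla2*) was 38473 to 40890 FPKM in ND, 19824 to 22111 in HFD, 29883 to 34643 in CLE and 28655 to 34218 in LU. Of these 9, 8 were called lower in HFD, 8 higher with CLE and 4 higher with LU (10.8%, 6.33% and 4.81% of all tested genes). Markers of macrophages moved the other way, from 66.9 to 97.1 FPKM in ND to 1188 to 1471 in HFD, 140 to 365 in CLE and 245 to 394 in LU. All 7 were called in each of these 3 comparisons (25.6%, 16.5% and 12.4% of all tested genes called in either direction). Their part in the change of *Adipor2* was not tested, but *Adipor2* was also expressed as a percentage of the adipocyte sum, a measure chosen after the values were seen. It was 1.17%, 1.14% and 0.983% in the ND mice, 0.96%, 0.905% and 1% in the HFD mice, 1.21%, 1.1% and 1.01% in the CLE mice and 1.05%, 1.03% and 0.917% in the LU mice. On this measure HFD overlapped ND (exact two-sided permutation p = 0.2, n = 3 against 3) and LU (exact p = 0.4), while the 3 CLE mice all lay above the 3 HFD mice (exact p = 0.1, the smallest that 3 against 3 allow). The sum rests largely on *Fabp4*, with means of 19732 FPKM of 39387 in ND and 10999 of 20642 in HFD. Its genes changed unequally in HFD, from -3.52 for *Cfd* and -0.62 for *Lipe* to 0.04 for *Lpl*. The percentage is therefore not a measure of *Adipor2* per adipocyte.

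*Adipor1*, the receptor tied chiefly to AMP-activated protein kinase, kept nearly the same level. It had 77.9, 70.8 and 75.4 FPKM in the ND mice, 71.2, 67.6 and 67.1 in the HFD mice, 76.3, 74.3 and 76.5 in the CLE mice and 69.9, 71.4 and 74.8 in the LU mice. HFD overlapped ND and LU but not CLE. Its log2 change was -0.12 in HFD against ND (95% interval -0.28 to 0.04, limma adjusted p = 0.181), 0.14 for CLE against HFD (interval -0.02 to 0.30, limma adjusted p = 0.152) and 0.07 for LU against HFD (interval -0.09 to 0.22, limma adjusted p = 0.504). All 3 intervals lie within the fold change of 1.5.

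The balance of the AdipoR genes therefore differed between diets. *Adipor2* made up 86%, 86.3% and 83.4% of the FPKM of *Adipor1* plus *Adipor2* in the ND mice and 72.9%, 74.7% and 74.8% in the HFD mice. It made up 84.6%, 82.7% and 79.8% in the CLE mice and 81.1%, 83.2% and 78.6% in the LU mice. The HFD mice were below all others (exact two-sided permutation p = 0.1 against each group, n = 3 against 3). LU was also below ND without overlap (exact p = 0.1), while CLE overlapped ND (exact p = 0.2) and LU (exact p = 0.5).

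The table gave each gene as several transcripts, 55 for the 5 genes, of which 28 were annotated and the others were assembled from the reads and tied to an annotated transcript. Assembled ones are written here as variants of that transcript (r1, r2 and so on). Cuffdiff, the authors' quantification program, divides reads among overlapping transcripts by estimation, so these values are less certain than the gene sums. The 21 transcripts with a mean of at least 1 FPKM, or protein-coding forms of *Lepr*, were examined, and 17 passed the filter. Between HFD and ND, 3 of the 17 were called higher and 6 lower, where 19.8% of 37646 tested transcripts were called. With CLE against HFD 4 were called, all higher (8.69% of all transcripts called), and with LU 3, all higher (5.92%).

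The major transcript *Adipor2-201* (8 exons, 77.4% of the gene's FPKM on average) moved as the gene did. It had 312, 378 and 290 FPKM in ND, 128, 147 and 147 in HFD, 331, 305 and 221 in CLE and 261, 296 and 219 in LU. It fell by 1.20 on the log2 scale in HFD (limma adjusted p = 0.00122) and rose by 1.00 with CLE (limma adjusted p = 0.00773) and by 0.87 with LU (limma adjusted p = 0.0223), the last called in 7 of the 12 fits that each left out 1 library (0.77 to 0.98). The retained-intron transcript *Adipor2-204*, which starts within 14 bases of it, fell by 1.40 (limma adjusted p = 3.9e-04) and rose by 0.91 with CLE (limma adjusted p = 0.00954). *Adipor2-202*, which starts in the promoter window printed above and has the same coding length of 1158 bases without the stop codon, had 19, 9.93 and 11.6 FPKM in ND and 17.7, 12 and 15 in HFD. These groups overlapped, and its log2 fold change was 0.17 (95% interval -0.46 to 0.79, limma adjusted p = 0.714). As a share of the gene, *Adipor2-202* had a mean of 3.09% in ND, 7.59% in HFD, 4.07% in CLE and 4.14% in LU, with no overlap between HFD and any other group (exact permutation p = 0.1 for each, n = 3 against 3).

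For *Adipor1*, whose sum hardly moved, single transcripts differed in direction. *Adipor1-201* had 53.6, 51 and 51.5 FPKM in ND and 43.8, 44.1 and 41 in HFD, a log2 change of -0.27 (limma adjusted p = 0.0818). *Adipor1-202*, with the same coding length of 1125 bases, had 13.3, 8.08 and 4.59 FPKM in ND and 18.5, 15.9 and 19.3 in HFD, and rose by 1.07 (limma adjusted p = 0.0485). Its assembled variant r10 had 3.61, 8.38 and 13.6 FPKM in ND and 0.398, 1.27 and 0.00459 in HFD, and fell by 2.54 (limma adjusted p = 0.0266). Within ND the mouse with the least *Adipor1-202* had the most of variant r10, and the mouse with the most had the least. With the letter R of the sample titles as a covariate (4 libraries carry it), the calls of *Adipor1-202* (0.71, limma adjusted p = 0.196) and of variant r10 (-1.75, limma adjusted p = 0.113) were lost. Leaving out 1 library at a time, *Adipor1-202* was called in 4 of 12 fits (0.73 to 1.4), and the call was lost without any of ND mice 3 and 4, the HFD mice, CLE mice 4 and 11 or LU mouse 3. Variant r10 was called in 8 of 12, and lost without ND mouse 3 or 4 or HFD mouse 12 or 18.

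**Figure D3:**
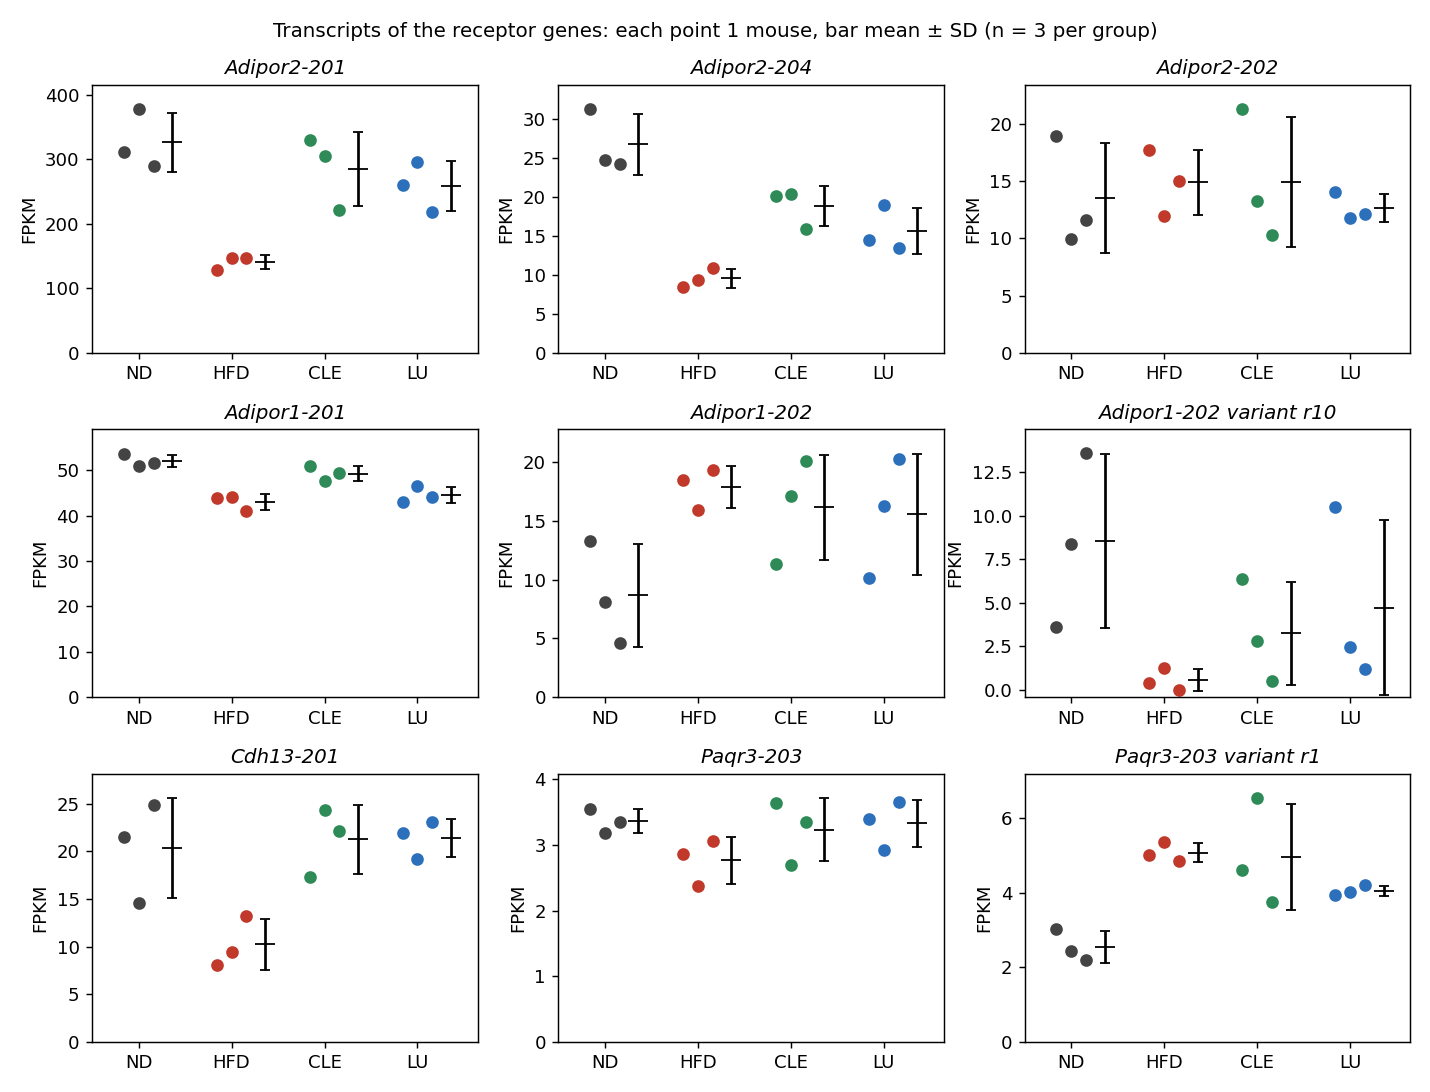
FPKM (vertical axes) of 9 transcripts of *Adipor2*, *Adipor1*, *Cdh13* and *Paqr3* in the 4 groups (horizontal axes), with 1 point per mouse and a bar for the mean ± SD of 3 mice, where a bar can reach below 0. *Adipor2-201* is at 128 to 147 FPKM in HFD and at 290 to 378 in ND, while *Adipor2-202* stays between 9.93 and 21.3 FPKM in all mice.

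*Cdh13*, the gene of T-cadherin, was lower in HFD and higher with both supplements. It had 50.9, 29.1 and 53.5 FPKM in ND mice 2, 3 and 4, 19.9, 21.7 and 33.8 in HFD mice 12, 15 and 18, 45.7, 62.4 and 62 in CLE mice 2, 4 and 11, and 56.2, 49.6 and 59 in LU mice 2, 3 and 8. ND mouse 3 was below HFD mouse 18, so these groups overlapped, while all CLE and LU mice were above all HFD mice. *Cdh13* fell by 0.79 on the log2 scale in HFD against ND (standard error 0.24, 95% interval -1.31 to -0.27, limma adjusted p = 0.0169). It rose by 1.17 with CLE (interval 0.64 to 1.69, limma adjusted p = 0.00326) and by 1.13 with LU (interval 0.61 to 1.66, limma adjusted p = 0.0055), folds of 2.25 and 2.19. The call between HFD and ND was made in 8 of the 12 fits that each left out 1 library (-1.06 to -0.64), and was lost without ND mouse 2 (-0.67), ND mouse 4 (-0.64), HFD mouse 12 (-0.65) or HFD mouse 15 (-0.71). Its main transcript *Cdh13-201* (14 exons) moved likewise, by -0.92 in HFD (limma adjusted p = 0.015), 1.00 with CLE (limma adjusted p = 0.0202) and 1.02 with LU (limma adjusted p = 0.0266), calls made in 10, 8 and 7 of the 12 such fits.

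Endothelial markers moved with *Cdh13*. The summed level of 9 (*Pecam1*, *Cdh5*, *Kdr*, *Tek*, *Tie1*, *Emcn*, *Cldn5*, *Erg* and *Egfl7*) was 649, 442 and 690 FPKM in ND, 295, 327 and 466 in HFD, 507, 635 and 736 in CLE and 637, 558 and 654 in LU. Of the 9, 3 were called lower in HFD, 5 higher with CLE and 6 higher with LU (10.8%, 6.33% and 4.81% of all tested genes). ND mouse 3 and HFD mouse 18, which overlapped for *Cdh13*, were also the lowest ND and the highest HFD mouse for these markers. As a percentage of this sum, again chosen after the values were seen, *Cdh13* was 7.84%, 6.58% and 7.75% in ND and 6.75%, 6.64% and 7.25% in HFD, which overlapped (exact permutation p = 0.4, n = 3 against 3). It was 9.01%, 9.83% and 8.42% in CLE and 8.82%, 8.89% and 9.02% in LU, above every HFD and every ND mouse (exact permutation p = 0.1 for each). The genes of this sum changed unequally in HFD, from -1.14 for *Cldn5* to -0.21 for *Erg*. The means in ND, HFD, CLE and LU were 47.9, 32.8, 68.4 and 59.6 FPKM for *Kdr*. For *Cldn5* they were 152, 68.5, 144 and 139 FPKM. The percentage is therefore not a measure of *Cdh13* per endothelial cell. The part of the markers in the change of *Cdh13* was not tested further.

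**Figure D4:**
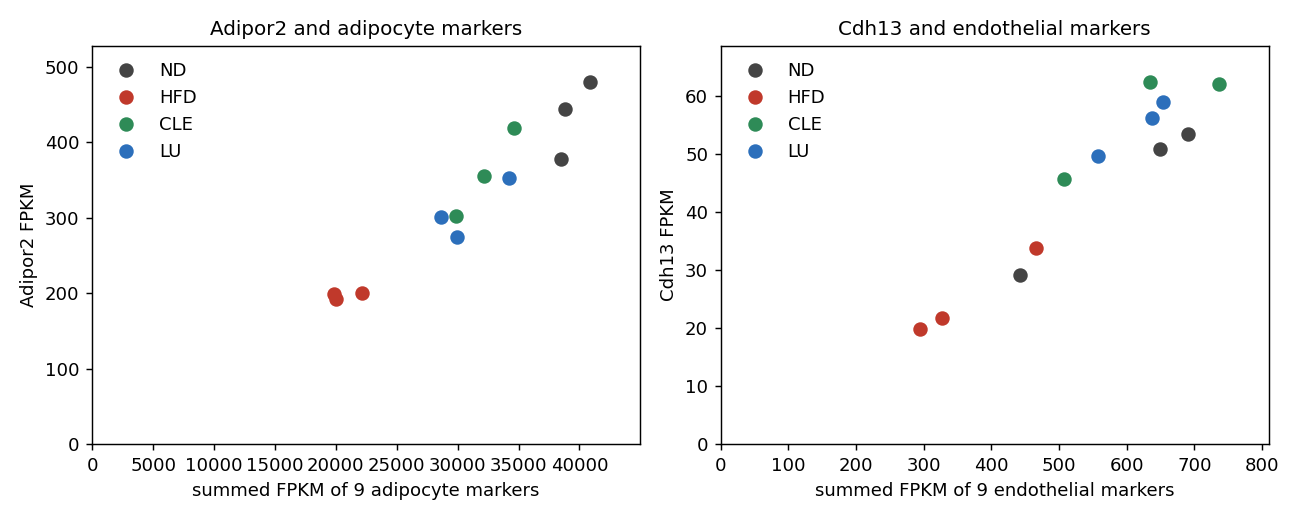
Left, *Adipor2* (vertical axis, FPKM) against the summed FPKM of 9 adipocyte markers (horizontal axis), and right, *Cdh13* against the summed FPKM of 9 endothelial markers, with 1 point per mouse coloured by group. The HFD mice lie at 19824 to 22111 FPKM of adipocyte markers and 192 to 200 FPKM of *Adipor2*, apart from the other groups, while for *Cdh13* ND mouse 3, at 442 and 29.1 FPKM, lies among the HFD mice.

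*Lepr* was lower in all 3 high-fat groups than in ND, at a very low level. It had 2.45, 1.35 and 1.83 FPKM in ND, 0.721, 0.847 and 0.933 in HFD, 0.746, 0.697 and 0.774 in CLE and 1.08, 0.763 and 0.604 in LU. Every ND mouse was above every other mouse, and HFD, CLE and LU overlapped. *Lepr* fell by 0.63 on the log2 scale in HFD against ND (95% interval -0.93 to -0.34, limma adjusted p = 0.00223), and by 1.05 with a pseudocount of 0.1 in place of 1. Its log2 fold change was -0.07 with CLE against HFD (interval -0.37 to 0.22, limma adjusted p = 0.704) and -0.02 with LU (interval -0.31 to 0.27, limma adjusted p = 0.922). The call between HFD and ND was lost without ND mouse 2, the highest library, where the change was -0.49. As a percentage of the adipocyte marker sum, *Lepr* was 0.00348% to 0.00599% in ND and 0.00361% to 0.00471% in HFD, which overlapped (exact permutation p = 0.6, n = 3 against 3). CLE, at 0.00215% to 0.00259%, was below HFD without overlap (exact permutation p = 0.1), and LU, at 0.00202% to 0.00377%, overlapped HFD (exact permutation p = 0.2). As a percentage of the endothelial sum *Lepr* was 0.265% to 0.378% in ND and 0.2% to 0.259% in HFD, without overlap (exact permutation p = 0.1). It was lower still in CLE (0.105% to 0.147%) and LU (0.0924% to 0.17%), neither of which overlapped HFD (exact permutation p = 0.1 for each). There the endothelial sum was higher (means of 626 FPKM in CLE and 616 in LU against 363 in HFD), while *Lepr* itself overlapped HFD. These percentages were also chosen after the values were seen. *Lepr* passed the filter only through the ND mice, so its comparisons with ND, percentages included, are not independent of the filter.

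The *Lepr* sum was spread over 14 transcripts, 7 of them assembled, and none reached the filter. With the assembled variants left out, *Lepr* did not pass the filter at all, so its call rests on them. Of the protein-coding forms shown above, the short form *Lepr-203* had a mean of 0.145 FPKM and was listed at 0.266 FPKM in ND mouse 2 and at most 0.317 FPKM in any mouse. The long form *Lepr-201* had a mean of 0.0335 FPKM, with 0.109 FPKM as its highest value. *Lepr-202* had a mean of 0.00459 FPKM, and *Lepr-205* was listed at 0 in every library. As a share of the gene's FPKM, *Lepr-203* was 25.2% to 40% in the LU mice, above the 7.36% to 20.1% of the HFD mice and above every ND mouse, of which the highest had 10.8% (exact permutation p = 0.1 for both, n = 3 against 3), while in CLE it ranged from near 0 to 45.4%. The shares of *Lepr-201* and *Lepr-202* overlapped between all groups. No form was tested in limma, the depth behind these values is unknown, and levels this low leave the shares uncertain.

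*Paqr3* moved a little in the other direction. It had 7.36, 5.66 and 6.23 FPKM in ND, 8.38, 8.18 and 8.09 in HFD, 8.84, 9.87 and 7.68 in CLE and 8.42, 7.69 and 8.58 in LU. Every mouse of the high-fat groups was above every ND mouse. Its log2 change was 0.32 in HFD against ND (95% interval 0.09 to 0.55, limma adjusted p = 0.0244), a fold of 1.25 that did not reach 1.5, and it was 0.08 with CLE (limma adjusted p = 0.579) and 0.00 with LU (limma adjusted p = 0.995) against HFD. The sum joined unlike transcripts. The full-length *Paqr3-203* (7 exons) had 3.55, 3.18 and 3.35 FPKM in ND and 2.86, 2.37 and 3.06 in HFD, a log2 change of -0.22 (limma adjusted p = 0.274). Its assembled variant r1, which runs from 97086980 to 97097771 and lacks the annotated start at 97111573, had 3.03, 2.44 and 2.19 FPKM in ND and 5.01, 5.36 and 4.86 in HFD, and rose by 0.78 (limma adjusted p = 0.00793). With the assembled variants left out of the sum, the direction of *Paqr3* turned to -0.23 (limma adjusted p = 0.143).

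None of the 5 genes was called between CLE and LU (0 in limma, and 0 at an unadjusted p under 0.05), where 0.00783% of all tested genes, 1 gene, were called and 5.26% had an unadjusted p under 0.05. The CLE and LU mice overlapped for all 5 genes, against 9.03% of tested genes without overlap. The 95% intervals of the log2 difference, CLE minus LU, were -0.08 to 0.23 for *Adipor1*, -0.08 to 0.50 for *Adipor2*, -0.49 to 0.56 for *Cdh13*, -0.35 to 0.24 for *Lepr* and -0.15 to 0.31 for *Paqr3*. Luteolin is a single flavonoid and CLE a leaf extract, given at different doses, so this compares the diets as fed.

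Against ND, the supplemented groups still differed in *Lepr*. It was lower with CLE (-0.71, standard error 0.13, limma adjusted p = 0.0175) and with LU (-0.66, 95% interval -0.95 to -0.36, limma adjusted p = 0.00951). It was the 1 member called in each comparison, where 0.853% of tested genes were called lower with CLE (2.91% in all) and 1.62% with LU (6.59% in all). *Lepr* passed the filter only through the ND mice, so these calls are not independent of the filter. Fitting only the groups compared lost both calls (limma adjusted p = 0.0978 and 0.0545). *Adipor2* had a log2 fold change of -0.28 for CLE against ND (interval -0.57 to 0.01, limma adjusted p = 0.235) and of -0.49 for LU against ND (interval -0.78 to -0.20, limma adjusted p = 0.0346), the latter under the fold change of 1.5. *Cdh13* had 0.38 (interval -0.15 to 0.90) and 0.34 (interval -0.18 to 0.87), neither called. Groups did not overlap for *Lepr* and *Paqr3* with CLE (24.7% of all genes) and for *Adipor2*, *Lepr* and *Paqr3* with LU (30.1% of all genes).

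The genes of the ligands moved in opposite directions. *Adipoq*, the gene of adiponectin, had 1866, 2292 and 2250 FPKM in ND, 1231, 1220 and 1107 in HFD, 2011, 2156 and 1633 in CLE and 1975, 1883 and 1629 in LU. It fell by 0.84 on the log2 scale in HFD (limma adjusted p = 1.9e-04) and rose by 0.70 with CLE (limma adjusted p = 0.00137) and 0.62 with LU (limma adjusted p = 0.00409). *Lep*, the gene of leptin, had 194, 248 and 302 FPKM in ND, 1172, 1271 and 1291 in HFD, 497, 586 and 697 in CLE and 500, 410 and 806 in LU. It rose by 2.34 in HFD (limma adjusted p = 9.7e-06), fell by 1.08 with CLE (limma adjusted p = 0.00388) and by 1.18 with LU (limma adjusted p = 0.00349), and remained higher than in ND with CLE (1.26, limma adjusted p = 0.0151) and LU (1.17, limma adjusted p = 0.00792). In HFD, *Adipoq* and *Adipor2* were both lower, and *Lep* was higher while *Lepr* was lower. *Adipoq* is also 1 of the 9 adipocyte markers, whose median log2 fold change in HFD was -0.84. The change of *Lepr*, at a very low level, is not independent of the filter. With the supplements *Lep* fell and *Lepr* was not called.

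Of the other 8 PAQR genes, 5 passed the filter, and 2 were called higher in HFD, where 25.6% of all tested genes were called in either direction. *Paqr7*, a membrane progestin receptor, had 11.5, 15.4 and 14.1 FPKM in ND and 32.1, 31.7 and 31.7 in HFD. It rose by 1.17 (limma adjusted p = 1.3e-04) and fell by 0.85 with CLE (limma adjusted p = 0.00228) and by 0.65 with LU (limma adjusted p = 0.0135). *Paqr9* rose by 1.61 in HFD (limma adjusted p = 7.3e-04) and fell by 0.83 with CLE (limma adjusted p = 0.044). The median of the 5 was 0.25 for HFD against ND, beside -0.02 for all genes. *Mmd*, *Paqr4* and *Paqr8*, the other 3, were not called in any of these comparisons.

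Of the 7 genes found of adiponectin assembly and secretion, all tested, only *Hspa5*, the chaperone BiP of the endoplasmic reticulum, passed both thresholds in HFD, higher by 0.89 (limma adjusted p = 4.0e-04). By the adjusted p alone, 4 were higher and 3 lower in HFD, where 50.5% of all tested genes passed, so the other 6 missed the call on the fold change. No gene of this list was called with CLE or LU against HFD (0 in limma, while 5 with CLE and 3 with LU had an unadjusted p under 0.05). By the adjusted p alone 1 was higher and 3 lower with CLE (33.6% of all genes passed), and 2 were higher with LU (26.8% of all genes). In the signaling list, 2 of 21 genes were called higher in HFD and 4 lower, with a median of -0.17, where 25.6% of all tested genes were called. The ceramidases were on both sides: *Acer3* (alkaline ceramidase) rose by 1.96 (limma adjusted p = 2.0e-06), *Asah1* (the acid ceramidase of the lysosome) rose by 0.91 (limma adjusted p = 1.5e-05), and *Acer2* (of the Golgi) fell by 1.09 (limma adjusted p = 3.0e-04). With CLE, *Acer3* fell by 1.51, *Asah1* fell by 0.73 and *Acer2* rose by 1.16, and with LU the changes were -1.05, -0.59 and 0.96, each of them called. Chosen after their values were seen, the other 3 lower in HFD were the kinase *Akt2* (-0.90), the AMP-activated protein kinase subunit *Prkag2* (-0.66) and the adaptor *Appl2* (-0.61). In all, 3 genes of this list were called higher and 2 lower with CLE (median 0.18, 16.5% of all genes called), and 1 higher and 2 lower with LU (median 0.14, 12.4% of all genes called). The adaptor *Appl1* had 11.5, 13.5 and 10.8 FPKM in ND and 13.3, 11.8 and 11.2 in HFD, which overlapped.

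Of the 21 leptin signaling genes, all tested, 3 were called higher in HFD and 4 lower, with a median of -0.13, where 25.6% of all tested genes were called. *Grb2*, an adaptor of growth factor and cytokine receptors, rose by 1.09 (limma adjusted p = 2.6e-05). *Irs1*, the insulin receptor substrate, fell by 1.16 (limma adjusted p = 1.7e-04), and *Cish*, an inhibitor of cytokine signaling, fell by 2.25 (limma adjusted p = 0.0128). *Cish* varied widely, with 12.4, 28.9 and 6.88 FPKM in ND and 17.6 in LU mouse 3 against 2.11 and 2.21 in the other LU mice. Chosen after their values were seen, *Ptpn1*, the phosphatase PTP1B that dephosphorylates JAK2, rose by 1.02 and *Leprot*, which restrains the display of the leptin receptor at the cell surface, rose by 0.66, while *Irs2* fell by 0.80 and *Pik3r1* by 0.65. *Leprot* had 41.8, 43.7 and 47.6 FPKM in ND and 69.3, 69.6 and 72.8 in HFD. It had 49.5, 50.2 and 51.7 FPKM in CLE and 54.1, 51.3 and 54.9 in LU, below every HFD mouse (-0.48, limma adjusted p = 6.0e-04, and -0.40, limma adjusted p = 0.00294, both short of the fold change of 1.5), while *Lepr* in these groups overlapped HFD. *Socs3*, *Stat3* and *Jak2* had log2 fold changes of 0.13, 0.09 and -0.18 in HFD and were not called. In this list 2 genes were called higher and 2 lower with CLE (median 0.04, 16.5% of all genes called), and likewise 2 and 2 with LU (median 0.05, 12.4% of all genes called).

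Among the 9 C1q/TNF paralogs of adiponectin, 7 were tested, of which 3 were called higher and 1 lower in HFD (median 0.14), where 25.6% of all tested genes were called. *C1qtnf6* rose by 1.41 (limma adjusted p = 1.9e-05) and *C1qtnf5* by 1.00 (limma adjusted p = 0.0027), and the third, *C1qtnf1*, named after its value was seen, by 0.76. *C1qtnf12*, an insulin-sensitizing adipokine, fell by 1.19 (limma adjusted p = 5.5e-06) and rose by 0.60 with CLE (limma adjusted p = 0.0014). With CLE, *C1qtnf6* fell by 0.97 and *C1qtnf5* by 1.07, both called (median of the list -0.27, 16.5% of all genes called). With LU no paralog was called (0 in limma, 3 at an unadjusted p under 0.05, median -0.10, 12.4% of all genes called), but *C1qtnf12* at 0.52 (limma adjusted p = 0.00474) and *C1qtnf6* at -0.52 (limma adjusted p = 0.024) missed only the fold change.

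**Figure D5:**
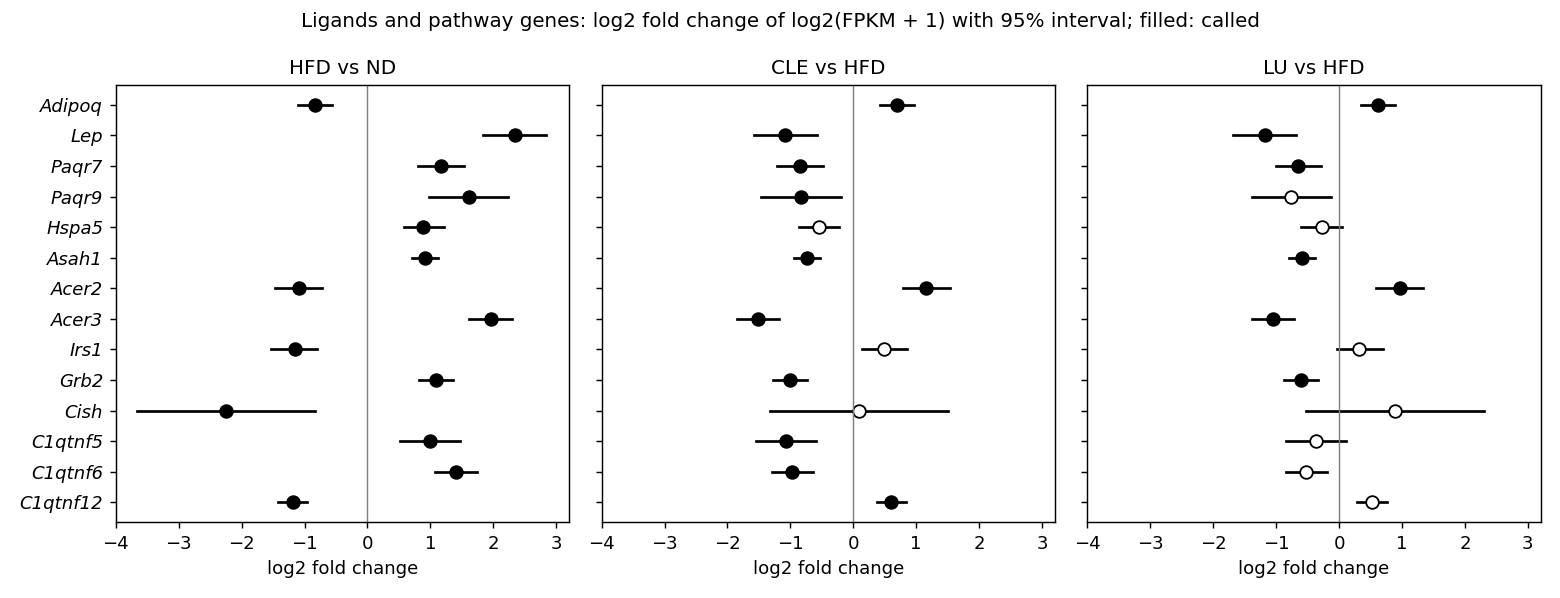
Log2 fold change on the log2(FPKM + 1) scale (horizontal axes) of the ligand genes and 12 pathway genes (rows) for HFD against ND, CLE against HFD and LU against HFD (panels), with 95% intervals as lines and filled points where a gene was called. *Lep* is at 2.34 in HFD and at -1.08 and -1.18 with the supplements, and *Adipoq* is at -0.84, 0.70 and 0.62.

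The genes with the most similar patterns were found by Pearson's r over the 12 libraries on log2(FPKM + 1), given as a description, since the libraries share their diets and scaling. For *Adipor2* they were *Hibadh* (r = 0.989), *Isca1* (0.989) and *Pde3b* (0.987), and for *Cdh13* they were *Cd300lg* (r = 0.992), *Sh3bp5* (0.986) and *Uaca* (0.986). For *Paqr3* they were *Thbs2* (r = 0.951), *Ssh1* (0.927) and *Golph3* (0.925), for *Adipor1* *Repin1* (r = 0.922), *BC024139* (0.912) and *Ptp4a1* (0.911), and for *Lepr* *AW554918* (r = 0.919), *Epc1* (0.918) and *Irf4* (0.916).

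Within groups, the libraries of any 2 mice correlated across genes with r of 0.978 to 0.991, no 2 libraries were identical, and the median ratio of a library to the geometric mean was 0.967 to 1.029. Summed levels of the other marker lists were 196 to 357 FPKM for mural cells, 643 to 975 for adipose progenitor cells, 2.29 to 53.3 for mesothelial cells, 1.81 to 7.7 for T cells, 1.66 to 31.6 for liver, 0.306 to 15.8 for skeletal muscle and 0 to 5.64 for epididymis, where *Lcn5* was at 0 in all libraries. Of these lists, mesothelial markers had 4 of 5 called lower in HFD, where 10.8% of all tested genes were called lower. Each other list had at most 1 gene called higher and 1 lower between HFD and ND. Adipose progenitor cells had both, *Col1a1* at 2.12 and *Ly6a* at -0.59. The letter R stands in the titles of LU mouse 2, CLE mouse 4 and ND mice 3 and 4 but of none of the HFD mice, so that HFD could not be compared within it. The FPKM columns of these 4 libraries also share a number in their headers that no other column used here carries. What the letter and the number stand for is not given. Without these 4 libraries, ND mouse 2 was the only ND mouse left, and ND was assumed to vary like the other groups. *Adipor2* was then at -1.28 for HFD against ND, and at 0.85 for CLE and 0.66 for LU against HFD. *Cdh13* was at -1.03, 1.09 and 1.11, and *Lepr* at -0.91 for HFD against ND. ND mouse 2 had the highest *Lepr* (2.45 FPKM) and *Adipor2* (480 FPKM) of all mice. ND mouse 3, with the lowest *Cdh13* in ND (29.1 FPKM), was left out. The values against ND therefore depend on which mouse remained, and cannot tell whether the letter R matters.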

How the data were processed

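Libraries (TruSeq, paired-end reads of 100 bases) of eWAT from 3 representative samples a group were sequenced on an Illumina HiSeq2500. The submitters' processing notes name CASAVA 1.8.2, Bowtie2 2.2.3, TopHat2 2.0.12 and Cufflinks 2.2.1. The authors deposited FPKM per transcript, with transcripts assembled by Cufflinks beside those of the annotation. FPKM holds no read counts, so the depth is unknown, the authors' count test could not be repeated, and no counting interval is given. The table also holds the authors' own fold changes and tests, which were not used, and 3 of its 15 FPKM columns, which no label names, were left out. CLE appears as CLL in the labels. The column MD4 was assigned to ND mouse 4 by inference from its letter R and number, since another header places it with ND.

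FPKM were summed per gene over transcripts with an annotated identifier, assembled variants included. Identifiers and positions are from GENCODE M21 (GRCm38). limma 3.58.1 in R 4.3.3 was fitted to log2(FPKM + 1) of 12775 of the 22947 genes, those reaching an FPKM of 1 in 3 or more libraries. The 4 groups were fitted together over the 12 libraries, 1 term for each group, with Benjamini-Hochberg adjustment over all genes per comparison. The calling thresholds are those the authors state. The fit was tested on simulated data with known changes. Shares were compared by exact permutation tests (scipy 1.17.1).

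The 5 genes and all lists were chosen with earlier results of these data known. Transcripts with a mean of at least 1 FPKM were examined, and of each pathway list up to 3 called genes with the largest change were named. Other pseudocounts, filters, scalings, moderation, weights, gene sums and sets of libraries were tried as alternatives.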

Additional observations from a re-analysis of the deposited data

How the results depend on the processing

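Of the values of the 5 genes in 6 comparisons under all alternatives, 783 kept direction and call, 20 changed direction, 6 gained a call and 13 lost one. With a mean of at least 5 FPKM required, *Lepr* was not tested and the members called against ND were 0 for CLE and 0 for LU. With only the groups compared in the fit, these counts were also 0, with *Lepr* at -0.71 for CLE against ND and -0.66 for LU against ND. By adjusted p alone, *Paqr3* for HFD (0.32) and CLE (0.40) against ND and *Adipor2* for LU against ND (-0.49) became calls, where 50.5% of all tested genes passed for HFD against ND. With the highest transcript in place of the sum, *Paqr3* was called at 0.78 for HFD and 0.73 for CLE against ND and was at -0.05 for CLE against HFD, *Cdh13* was at -0.02 for CLE against LU, *Adipor1* at -0.08 for CLE against ND, and 0 members were called for LU against ND. With class j (assembled) variants left out, *Adipor1* was at 0.03 for HFD against ND and -0.06 for LU against HFD, *Paqr3* at -0.23 for HFD against ND, -0.1 for CLE against LU and -0.01 for CLE against ND, and *Cdh13* at -0.05 for CLE against LU, with 0 members called for CLE and 0 for LU against ND. Quantile normalization put *Lepr* at 0.03 for CLE against LU. Without the letter R libraries, *Cdh13* was at -0.02 and *Lepr* at 0.07 for CLE against LU, and *Adipor1* at -0.03 for CLE against ND. The causes of these changes were not tested.

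Leaving out each library in turn, between 1 and 3 members were called for HFD against ND (1 without ND mouse 2), 1 to 2 for LU against HFD (1 without LU mouse 3), 0 to 1 for CLE against ND and 0 to 2 for LU against ND. *Cdh13* ranged from -1.06 to -0.64 for HFD against ND and from -0.04 to 0.18 for CLE against LU. *Lepr* ranged from -0.77 to -0.49 for HFD against ND, from -0.12 to 0.06 for LU against HFD, from -0.14 to 0.05 for CLE against LU, from -0.84 to -0.57 for CLE against ND (lost without ND mouse 2, CLE mouse 4 or CLE mouse 11) and from -0.79 to -0.51 for LU against ND (lost without ND mouse 2 or LU mouse 8). *Adipor2* ranged from 0.54 to 0.72 for LU against HFD and from -0.59 to -0.41 for LU against ND (called without LU mouse 3), and *Adipor1* from -0.02 to 0.05 for CLE against ND.

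Transcripts were less stable: 693 values kept direction and call, 24 changed direction, 7 gained a call and 41 lost one, over the 3 comparisons of HFD with ND, CLE and LU, and the alternatives were not run for the other 3. *Adipor2-203* was at -0.37 for CLE against HFD with a pseudocount of 0.1 and at -0.02 for HFD against ND after quantile normalization. With the letter R as a covariate, for CLE against HFD *Adipor1-202* was at 0.01, *Adipor2-203* r2 at 0.61 and *Adipor2-202* at 0.04, and for LU against HFD *Adipor1-202* r3 was at 0.03. Leaving out each library, the values whose direction turned ranged for HFD against ND from -0.01 to 0.42 (*Adipor2-202*), -0.59 to 0.83 (*Adipor2-203*) and -0.85 to 0.12 (*Cdh13-203*). For CLE against HFD they ranged from -0.34 to 0.05 (*Adipor1-202*), -1.01 to 0.44 (*Adipor2-203* r2), -0.31 to 0.18 (*Adipor2-202*), -0.53 to 1.68 (*Adipor2-203*), -0.59 to 0.5 (*Cdh13-201* r2) and -0.23 to 0.1 (*Paqr3-203* r1). For LU against HFD they ranged from -0.44 to 0.03 (*Adipor1-202*), -0.25 to 0.06 (*Adipor1-202* r3) and -0.01 to 0.75 (*Cdh13-201* r2).

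For mice of different groups that carry the same number, deviations from the group means correlated across genes with r from -0.099 to 0.189 over 5 pairs. Pairs with unlike numbers were not compared, and no HFD mouse shares its number with another group. Whether the numbers pair the samples was therefore not settled. With the replicate block, *Adipor2* was at -1.12 and *Cdh13* at -0.8 for HFD against ND, and no call of a member changed. No scaling moved the median log2 fold change of all genes beyond 0.1 from 0.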
